A study of Mus musculus with 24 samples.

Results

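In this series 10 transcription factors that mark the lineages of the lung were followed through postnatal growth: Nkx2-1, Foxa1, Foxa2, Foxf1, Foxj1, Sox2, Sox9, Gata6, Tbx4 and Tbx5. The genes were chosen by name and found through the RefSeq transcript printed for each probe, which gave 11 probes for 10 genes, of 19722 genes named on the array. Whole lungs of healthy C57BL/6 mice were taken at postnatal days 1, 4, 7 and 14 (5 biological replicates per age by the labels) and at day 42, labelled 6 weeks (4 replicates). Each was read on 1 single-colour Cy3 array, on which the brightness of a spot reports the level of its transcript. The mice carried no other treatment or genotype in the labels, and whole lung mixes all of its cell types. Whether each replicate is 1 animal or a pool is not given in the sources used here, and p-values measure the spread between these samples. The title of the series speaks of fetal lungs, whereas every sample is labelled postnatal.

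These factors are known chiefly from the embryonic lung. Nkx2-1 marks the lung field of the foregut and is later required for surfactant gene expression, and the forkhead factors Foxa1 and Foxa2 act beside it in the epithelium. Sox9 marks the distal tips of the branching epithelium and also cartilage cells, while Sox2 marks the conducting airway, and Foxj1 switches on the genes of motile cilia. Gata6 works in epithelium and in vascular muscle. Tbx4 and Tbx5 are paired T-box factors of the lung mesenchyme, and Foxf1 is a Hedgehog-dependent forkhead factor of mesenchyme that is also made by capillary endothelium.

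All 11 probes were well above background on all 24 arrays and none was saturated, so every member was tested. Values are log2 of the processed signal minus the 75th percentile of the array. Levels of the members are compared between ages for 1 probe, never between genes. Where levels are summed over a list of genes, unlogged values were added, so the brightest probes weigh most. On the first principal component (49.8% of the variance) 5 arrays stood apart. They were a pair from day 1 (replicates 4 and 5), a pair from day 4 (replicates 1 and 3) and day 42 replicate 4. On these arrays the median of all genes lay 0.55 above the other arrays of the same age, and 49.0% to 54.6% of probes were well above background, against 55.7% to 79.4% on the other 19. Nkx2-1, Foxa2, Foxf1, Foxj1, Tbx4 and Tbx5 were higher on all 5 of them than on every other array of the same age, by means of 0.71, 1.08, 1.07, 0.90, 0.62 and 0.46. That was so for 50.3% of all genes tested. Sox2 and Gata6 deviated by means of 0.05 and -0.04. The same 5 arrays had the lowest 75th percentiles of signal, from 475.9 to 978.5, against 995.0 or more on the others. That percentile is subtracted from every value, and its part in the higher values was not tested. The main differences of the members, and counts of the lists from day 1 to day 42, are therefore also given without these 5 arrays, a choice made after the data were seen. Where arrays of different ages are said not to overlap, this describes their values only. The share of all genes that separated in the same way was not counted.

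Between any of the 5 ages, 6 of the 10 factors differed by the moderated F-test of limma (adjusted p under 0.05), against 31.8% of the 15895 genes tested. They were Sox9 (adjusted p = 1.11e-07), Tbx5 (0.000563), Tbx4 (0.00113), Foxj1 (0.00275), Sox2 (0.00509) and Gata6 (0.0313). Foxf1 (0.0946), Foxa1 (0.186), Foxa2 (0.494) and Nkx2-1 (0.922) did not pass. Foxf1 passed that F-test in the authors' deposited table (0.019), with the 75th percentile of detected probes (0.0341) and without day 42 replicate 4 (0.0319). There 7119, 6374 and 6282 genes passed and Gata6 did not, so the count of 6 held with a change of members. With array weights, under which 12772 genes passed, Foxf1 (0.00146) and Foxa1 (0.000275) both passed. With the 5 arrays left out 8 passed, with Foxa1 (0.0488) and Foxf1 (0.0313) added, while the share of all genes rose to 53.9%. Sox9, Gata6, Tbx4 and Tbx5 were lower and Sox2 was higher at day 42 than at day 1, which makes 5 members past the test, against 26.8% of all genes. The median difference of the 10 members was -0.14, and that of all genes -0.06. Without the 5 arrays 7 members passed that comparison, 3 higher and 4 lower, against 46.6% of all genes, and the medians were 0.04 and -0.02.

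**Figure D1:**
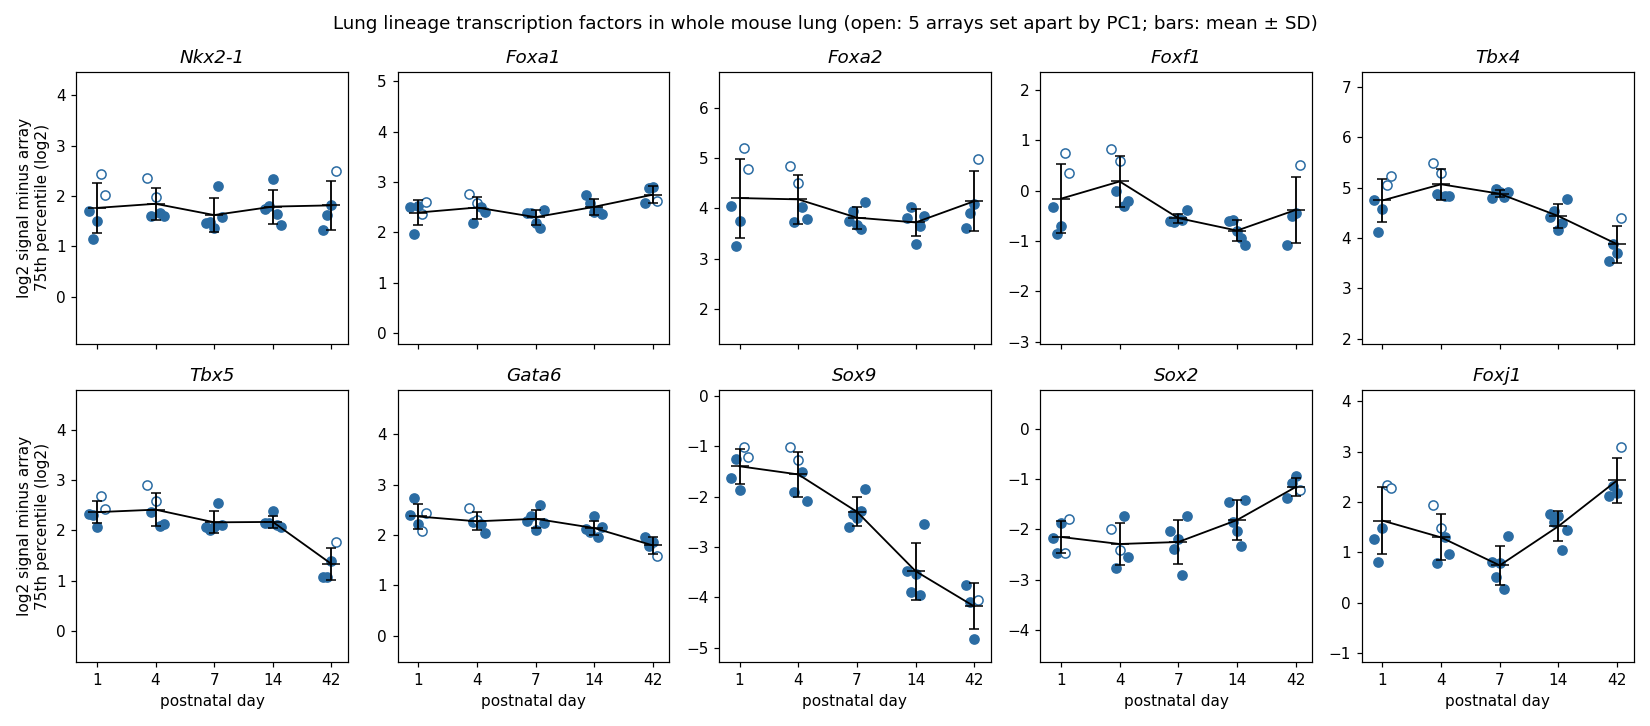
Level of each factor (vertical axis, log2 of signal minus the 75th percentile of the array, the same span of log2 units in each panel) by postnatal day, 1 point per array, with mean and SD in black. Open points are the 5 arrays that stood apart. Sox9 descends from a mean of -1.40 at day 1 to -4.18 at day 42, and Foxj1 has its lowest mean at day 7. The age means of Nkx2-1 stay between 1.62 and 1.85, with single arrays from 1.15 to 2.49.

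From day 1 to day 4, 0 of the 10 members passed (0.0566% of all genes). An unadjusted limma p under 0.05 was found for 0 members, against 819 of the 15895 genes tested. From day 4 to day 7, 0 passed (0.00629% of all genes). There 2 members had an unadjusted p under 0.05, against 1337 of the 15895 genes. From day 7 to day 14 Sox9 alone fell past the test (11.6% of all genes), and from day 14 to day 42 Tbx5 alone (3.70% of all genes). The median difference of the members and of all genes over the 4 steps was 0.012 and -0.00123, -0.24 and -0.23, -0.04 and 0.02, and 0.13 and 0.07. Without the 5 arrays 3 members passed in each of these last steps, while the share of all genes rose to 38.6% and 13.5%.

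**Figure D2:**
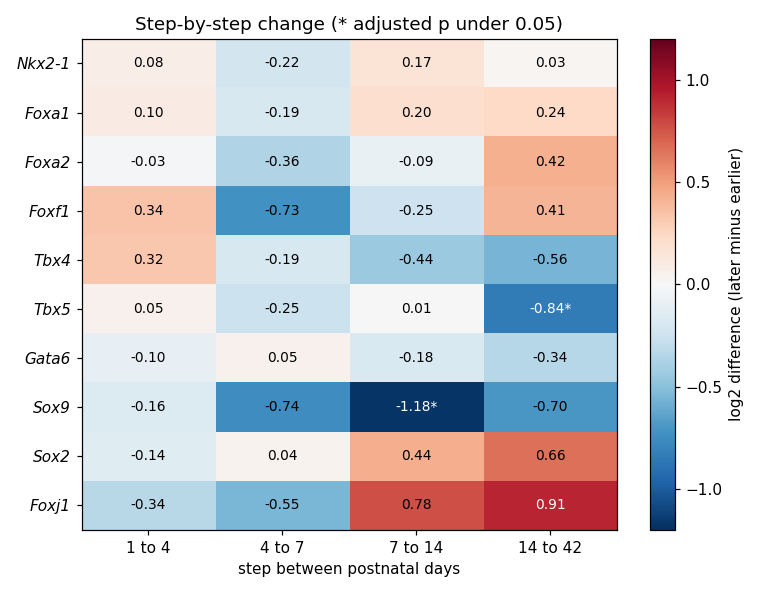
Log2 difference (colour and printed value, later minus earlier age) of each factor over the 4 steps between neighbouring ages, with all 24 arrays, and an asterisk where adjusted p was under 0.05. The marked cells are Sox9 from day 7 to day 14 (-1.18) and Tbx5 from day 14 to day 42 (-0.84).

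Sox9, the factor of distal tips and of cartilage, had the largest change of the 10. Its 5 day 1 arrays read -1.64, -1.25, -1.87, -1.02 and -1.21. The day 4 arrays read -1.02, -1.91, -1.27, -1.52 and -2.08, and those of day 7 -2.61, -2.35, -2.43, -2.28 and -1.84. At day 14 the values were -3.48, -3.89, -3.54, -3.96 and -2.54, and at day 42 they were -3.75, -4.10, -4.83 and -4.05. Days 1 and 4 overlapped, day 7 touched the low end of day 4, and every day 42 array lay below every array of days 1, 4 and 7. Only day 14 replicate 5 kept day 14 from standing clear of day 7.

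Between day 1 and day 42 Sox9 fell by 2.78 on the log2 scale (SE 0.285, 95% interval -3.37 to -2.19), to a level 6.89-fold lower (adjusted p = 1.47e-07, limma, n = 5 and 4). The fall within slides 1, 2 and 3, each of which held every age, was -2.42, -3.23 and -2.18. Its step from day 7 to day 14 was -1.18 ± 0.269 (SE, adjusted p = 0.00445, n = 5 and 5), and the steps before and after it, -0.74 ± 0.269 from day 4 to day 7 and -0.70 ± 0.285 from day 14 to day 42, did not pass. Without the 5 arrays the differences from day 1 to day 42 and from day 7 to day 14 were -2.64 and -1.18. With the normexp background correction Sox9 differed by less, -1.87 (adjusted p = 4.82e-07) and -0.66 (adjusted p = 0.0346). The Sox9 probe was spotted 10 times per array and averaged. In whole tissue, fewer cells that make a transcript and less of it per cell cannot be told apart.

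Markers of airway cartilage, the other tissue of the lung rich in Sox9, were read on the same arrays. Of 13 cartilage genes on the array 10 were tested, and from day 1 to day 42 0 rose and 3 fell, a count near the 26.8% of all genes that differed (0 and 3 without the 5 arrays). The 3 were Col2a1, the main collagen of cartilage (-4.89 ± 1.04), Hapln1, a linker of proteoglycan and hyaluronan (-2.93 ± 0.722), and Col9a2, a chain of a cartilage collagen (-2.10 ± 0.365). The summed level of the 13 genes, in units of the array's 75th percentile, ran from 1.68 to 3.53 at day 1, from 1.60 to 6.56 at day 4, from 1.55 to 4.53 at day 7, from 0.491 to 4.84 at day 14 and from 0.328 to 1.02 at day 42. At day 14 the sums were 4.84, 0.526, 0.906, 0.491 and 1.03 in order of replicate. The Sox9 values of these arrays, in the same order, were -3.48, -3.89, -3.54, -3.96 and -2.54. The part of cartilage in the fall of Sox9 was not tested.

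Tbx5 and Tbx4, the mesenchymal T-box pair, were both lower at day 42. Tbx5 read 2.33, 2.30, 2.06, 2.68 and 2.43 at day 1 and 2.89, 2.36, 2.58, 2.09 and 2.13 at day 4. It read 2.07, 2.01, 2.06, 2.55 and 2.10 at day 7, 2.14, 2.14, 2.38, 2.11 and 2.06 at day 14, and 1.08, 1.08, 1.39 and 1.77 at day 42. The first 4 ages overlapped, and all 4 day 42 arrays lay below all 20 others. Tbx5 fell by 0.84 between day 14 and day 42 (SE 0.186, adjusted p = 0.0111, n = 5 and 4), and by 1.03 between day 1 and day 42 (SE 0.186, 95% interval -1.42 to -0.644, adjusted p = 0.000185), which is 2.04-fold lower. The step from day 7 to day 14 was 0.01 ± 0.175.

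Tbx4 began its descent earlier in the means, which were 4.75, 5.07, 4.88, 4.44 and 3.88 in order of age. Its day 1 arrays read 4.76, 4.13, 4.57, 5.05 and 5.23, those of day 4 5.50, 4.88, 5.29, 4.84 and 4.84, and those of day 7 4.79, 4.97, 4.92, 4.82 and 4.91. The day 14 arrays read 4.41, 4.54, 4.16, 4.30 and 4.78 and did not overlap with day 7, and the day 42 arrays read 3.55, 3.88, 3.70 and 4.39. Between day 1 and day 42 Tbx4 fell by 0.87 (SE 0.214, 95% interval -1.31 to -0.422, adjusted p = 0.00371), which is 1.82-fold lower, although the arrays of both ages overlapped. With all arrays the steps from day 7 to day 14 (-0.44 ± 0.202) and from day 14 to day 42 (-0.56 ± 0.214) had adjusted p = 0.187 and 0.184. Without the 5 arrays they were -0.44 and -0.73, with adjusted p = 0.00873 and 0.00276.

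On slide 3, whose only day 42 array was replicate 4, the differences between day 42 and day 1 were -0.29 for Tbx5 and -0.17 for Tbx4. On slides 1 and 2 they were -1.42 and -1.13 for Tbx5 and -1.36 and -0.89 for Tbx4. That replicate is one of the 5 arrays, and without all 5 the differences were -1.05 for Tbx5 and -0.78 for Tbx4 (adjusted p = 1.86e-05 and 0.00067), and the step of Tbx5 from day 14 to day 42 was -0.98 (0.000129). The call of Tbx5 from day 14 to day 42 ended without day 42 replicate 2 (-0.75, adjusted p = 0.0542), with median scaling (-0.63, adjusted p = 0.229) and with the compared ages alone (0.0685). With the compared ages alone, the fall of Tbx4 from day 1 to day 42 had adjusted p = 0.0906. Whether the falls of both genes differ in timing was not tested.

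Upstream sequence from RefSeq was used for 5 of the 10 genes, in 7 windows of 250 bases before an annotated start (GRCm38.p6). The windows of Tbx4, which fell, and Sox2, which rose, show the start regions of members that moved in opposite directions, and that of Foxa1 is shown because it holds a forkhead motif, the site type of its own protein family. Nothing in these arrays measures promoter activity. Tbx4 lies on the plus strand (chr11:85896515-85896764), Sox2 on the plus strand (chr3:34649745-34649994) and Foxa1 on the minus strand (chr12:57546112-57546361), each printed 5′ to 3′ towards the start, with motif matches in capitals.
Tbx4: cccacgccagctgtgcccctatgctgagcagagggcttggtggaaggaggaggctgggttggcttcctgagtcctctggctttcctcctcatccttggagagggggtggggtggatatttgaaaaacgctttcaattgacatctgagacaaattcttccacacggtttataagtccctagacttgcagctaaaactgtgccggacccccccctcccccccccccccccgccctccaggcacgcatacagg
Sox2: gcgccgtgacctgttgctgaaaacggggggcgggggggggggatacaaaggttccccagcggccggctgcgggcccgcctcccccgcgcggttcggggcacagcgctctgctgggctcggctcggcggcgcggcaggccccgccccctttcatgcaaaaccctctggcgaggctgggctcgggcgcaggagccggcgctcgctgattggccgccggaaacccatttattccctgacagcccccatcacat
Foxa1: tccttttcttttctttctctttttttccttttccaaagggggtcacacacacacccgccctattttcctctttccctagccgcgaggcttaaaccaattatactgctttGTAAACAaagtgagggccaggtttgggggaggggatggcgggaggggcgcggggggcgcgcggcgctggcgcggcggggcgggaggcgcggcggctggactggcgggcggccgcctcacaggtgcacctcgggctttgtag
GC content was 58.4% for Tbx4, 72.0% for Sox2 and 62.0% for Foxa1, against a median of 52.4% over 32851 windows of the same length. Both strands were searched for 5 motifs, and overlaps between motifs were not set aside. The forkhead letters TGTTTAC were in 3.17% of all windows, and 1 of the 7 member windows held them, that of Foxa1 on the opposite strand at bases 141 to 135 before the start. The GATA letters AGATAA were in 9.99% of all windows and in 1 member window, of Foxa2, at bases 183 to 178. The SOX letters ACAATG, in 10.7% of all windows, were in 0 member windows. The same held for the T-box letters GGTGTGA, in 3.33% of all windows, and for the NKX2 letters CAAGTG, in 11.6%.

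Gata6, a zinc finger factor of epithelium and vascular muscle, had the smallest change of those that passed. It read 2.39, 2.73, 2.22, 2.08 and 2.43 at day 1, 2.54, 2.27, 2.30, 2.22 and 2.04 at day 4, and 2.29, 2.38, 2.11, 2.60 and 2.24 at day 7. At day 14 it read 2.13, 2.07, 2.37, 1.97 and 2.16, and at day 42 it read 1.96, 1.78, 1.86 and 1.58. Every day 42 array lay below every array of the other ages. The level fell by 0.57 between day 1 and day 42 (SE 0.152, 95% interval -0.891 to -0.259, adjusted p = 0.00636), which is 1.49-fold lower, and differences within slides were -0.27, -0.76 and -0.64. The difference was -0.58 without the 5 arrays (adjusted p = 0.00294). In the authors' deposited table, fitted in the same way, the difference was -0.43 (adjusted p = 0.196), after quantile normalization -0.48 (0.053), with the 75th percentile of probes detected on all arrays -0.47 (0.0869) and with the compared ages alone -0.57 (0.144), so the call did not hold there. Its F-test ended with the same table (adjusted p = 0.215), with quantile normalization (0.104), with the 75th percentile of probes detected on all arrays (0.145), with the normexp background (0.0673), without a filter (0.0514), and without any 1 of day 42 replicates 2, 3 and 4 (0.0841, 0.0637 and 0.0849).

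Gata6 and Tbx5 are also factors of the heart, so heart muscle genes were read on the same arrays. All 12 were tested, and from day 1 to day 42 0 rose and 1 fell, Myl2, a ventricular myosin light chain (-4.19 ± 1.31), as many as without the 5 arrays. Of all genes 26.8% passed there, and 46.6% without the 5 arrays. Their summed level ran from 44.7 to 1400 at day 1 and from 91.9 to 246 at day 42, and at days 4, 7 and 14 from 65.1 to 113, 16.3 to 180 and 69.7 to 317. The 1400 belonged to day 1 replicate 2, on which Gata6 had its highest value (2.73) and Tbx5 read 2.30, inside the range of its age. Without that array Gata6 fell by 0.48 and Tbx5 by 1.04 between day 1 and day 42 (adjusted p = 0.0202 and 0.000415).

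Sox2, the conducting airway factor, was the member that rose past the test from day 1 to day 42 with all arrays and the settings used throughout. It read -2.17, -2.47, -1.87, -2.47 and -1.79 at day 1, -2.0, -2.77, -2.42, -1.73 and -2.55 at day 4, and -2.03, -2.40, -2.20, -2.90 and -1.74 at day 7. At day 14 it read -1.46, -1.85, -2.04, -2.33 and -1.41, and at day 42 it read -1.38, -1.09, -0.95 and -1.23. The first 4 ages overlapped, and all 4 day 42 arrays lay above all others. Between day 1 and day 42 the level rose by 0.99 (SE 0.25, 95% interval 0.474 to 1.51, adjusted p = 0.00432), or 1.99-fold, with 0.94, 1.11 and 0.64 within slides. Neither step of the later ages passed (0.44 ± 0.236 from day 7 to day 14 and 0.66 ± 0.25 from day 14 to day 42). The rise was 1.03 without the 5 arrays (adjusted p = 0.0112).

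Foxj1, the switch for motile cilia, had its lowest mean at day 7 and its highest at day 42. Its values were 1.26, 0.81, 1.48, 2.33 and 2.28 at day 1, with the last pair from arrays that stood apart, and 1.95, 0.78, 1.48, 1.31 and 0.97 at day 4. They were 0.81, 0.52, 0.79, 0.27 and 1.32 at day 7, 1.77, 1.61, 1.73, 1.04 and 1.45 at day 14, and 2.12, 2.31, 2.19 and 3.1 at day 42. Day 42 lay above all of day 14, while day 7 shared its upper end with day 14 and day 1. With all arrays none of the 5 comparisons run between 2 ages passed. All of day 42 also lay above all of day 7, a pair of ages noticed in the values and not tested. The difference was -0.34 ± 0.29 from day 1 to day 4 (adjusted p = 1) and -0.55 ± 0.29 from day 4 to day 7 (0.378), or -0.16 and -0.28 without the 5 arrays. From day 7 to day 14 it was 0.78 ± 0.29 (adjusted p = 0.0927), from day 14 to day 42 0.91 ± 0.308 (0.113) and from day 1 to day 42 0.80 ± 0.308 (0.0596). Without the 5 arrays the last 3 were 0.78, 0.69 and 1.02, and all passed (adjusted p = 0.00403, 0.0452 and 0.00241). With day 14 replicate 5 left out as well, the step from day 14 to day 42 did not (0.67, adjusted p = 0.0672). The authors' deposited table, fitted in the same way, gave 0.80, 0.77 and 0.93 (adjusted p = 0.00243, 0.0117 and 0.000498). On all arrays the rise from day 1 to day 42 also passed with a slide block (0.0419), the normexp background (0.0449), quantile normalization (0.00521), the 75th percentile of detected probes (0.00211) and array weights (0.000471).

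Marker genes of airway cell types were read beside these airway factors, against 26.8% of all genes past the test from day 1 to day 42 and 46.6% without the 5 arrays. Of 20 multiciliated cell genes tested, 7 rose and 1 fell from day 1 to day 42 (14 and 1 without the 5 arrays). Dnah5, a heavy chain of outer dynein arms (1.94 ± 0.372), Rsph4a, a radial spoke head protein (1.47 ± 0.378), and Hydin, a protein of the central pair of microtubules (1.34 ± 0.182), rose, and the member that fell was Ccno, a cyclin-like protein of early ciliated cell differentiation (-1.22 ± 0.359, named after its value was seen). Of 9 club and secretory genes 7 rose and 0 fell (7 and 0 without the 5 arrays), among them Bpifa1, a secreted airway protein (8.15 ± 1.74), Muc5b, a gel-forming mucin (4.23 ± 1.21), and Scgb3a1, a secretoglobin (3.99 ± 1.24). Of 6 basal and squamous genes tested 1 rose, Ly6d (1.67 ± 0.471), and 2 fell, the keratins Krt15 (-2.54 ± 0.812) and Krt14 (-1.23 ± 0.32). Without the 5 arrays Ly6d (2.01) and Krt14 (-1.30) passed and Krt15 did not (-2.18, adjusted p = 0.123). Of 8 neuroendocrine genes 1 rose, Resp18 (0.79 ± 0.274), and 1 fell, Uchl1, a ubiquitin hydrolase (-1.58 ± 0.398), a share near that of all genes (1 and 1 without the 5 arrays). The summed level of 22 multiciliated genes on the array, in units of the 75th percentile, ran from 85.6 to 113 at day 1. It ran from 80.4 to 95.3 at day 4, from 68.9 to 89.2 at day 7 and from 84.6 to 115 at day 14. At day 42 it ran from 110 to 162, which overlaps with day 14. The 113, 95.3 and 162 were read on arrays that stood apart. The part of airway cell content in the rise of Sox2 was not tested.

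**Figure D3:**
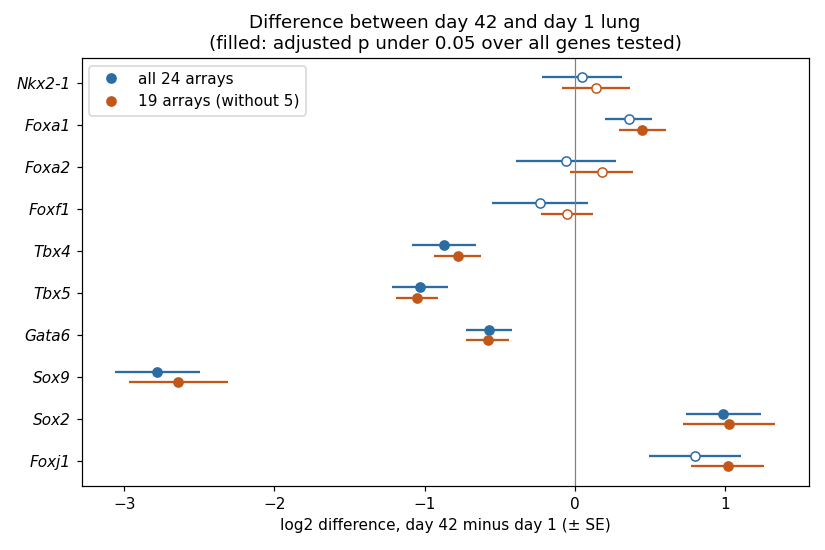
Log2 difference between day 42 and day 1 (horizontal axis, with SE) for each factor, with all 24 arrays in blue and without the 5 arrays in orange, and filled points where adjusted p was under 0.05. Sox9 lies farthest from 0 at -2.78 and -2.64, and Foxj1 and Foxa1 are filled only without the 5 arrays.

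Nkx2-1, the early factor of lung epithelium, did not pass in any of the 5 comparisons run with the settings used throughout (adjusted p = 0.519 or more). Its lowest, median and highest values were 1.15, 1.71 and 2.44 at day 1, 1.61, 1.67 and 2.35 at day 4, 1.37, 1.49 and 2.20 at day 7, 1.42, 1.74 and 2.33 at day 14, and 1.33, 1.72 and 2.49 at day 42. The ages overlapped throughout. The difference between day 42 and day 1 was 0.05 ± 0.267, with a 95% interval from -0.502 to 0.605. Within slides 1, 2 and 3, with few arrays each, it was -0.74, 0.14 and 0.99, and without the 5 arrays 0.14 ± 0.227. Day 1 replicates 4 and 5 and day 42 replicate 4, which are among the 5, lay on slides 1, 2 and 3 in that order. With array weights, under which 60.3% of all genes passed, Nkx2-1 rose from day 7 to day 14 (0.27, adjusted p = 0.0227). Nkx2-1 is also a thyroid factor, but of 6 thyroid genes on the array only Tg, the thyroid hormone precursor, was detected widely enough to test. It passed the F-test over ages (adjusted p = 0.0133) but not from day 1 to day 42 (0.84 ± 0.368, adjusted p = 0.101, and 0.70 without the 5 arrays).

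Foxa1 and Foxa2, the paired forkhead factors of endoderm, did not pass in any of the 5 comparisons run with all arrays and the settings used throughout. Foxa1 read 1.97 to 2.60 at day 1, 2.18 to 2.77 at day 4, 2.09 to 2.45 at day 7, 2.37 to 2.74 at day 14 and 2.58 to 2.90 at day 42. All of day 42 lay above all of day 7, a pair of ages that was noticed in the values and not tested. The difference of day 42 from day 1 was 0.36 ± 0.156 (adjusted p = 0.0986), or 0.45 ± 0.156 without the 5 arrays (adjusted p = 0.0239). On all arrays Foxa1 passed that comparison with quantile normalization (0.48, adjusted p = 0.0227), with the 75th percentile of detected probes (0.46, 0.0294) and with array weights (0.48, 0.00589), and with array weights also from day 7 to day 14 (0.28, 0.00636). Foxa2 had a probe that read 3.25 to 5.19 at day 1, 3.72 to 4.85 at day 4, 3.59 to 4.12 at day 7, 3.29 to 4.02 at day 14 and 3.60 to 4.98 at day 42. Its difference between day 42 and day 1 was -0.06 ± 0.334, with slides at -1.02, -0.03 and 1.24, and 0.18 ± 0.21 without the 5 arrays. The second Foxa2 probe gave -0.11 ± 0.346 there, and both probes gave like values for the step from day 4 to day 7 (-0.36 and -0.40) and from day 14 to day 42 (0.42 and 0.43). Both Foxa2 probes had their highest values of days 1, 4 and 42 on arrays that stood apart. Of these arrays, day 1 replicates 4 and 5 and day 42 replicate 4 lay on slides 1, 2 and 3, in that order, and each slide held few arrays per age.

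Foxf1, the factor of mesenchyme and capillary endothelium, had its highest mean at day 4. It read -0.33, -0.86, -0.69, 0.75 and 0.35 at day 1, 0.84, -0.01, 0.60, -0.30 and -0.20 at day 4, -0.60, -0.61, -0.54, -0.57 and -0.39 at day 7, -0.59, -0.57, -0.79, -0.93 and -1.07 at day 14, and -1.08, -0.51, -0.45 and 0.52 at day 42. Every day 4 array was above every day 7 array, but the step (-0.73 ± 0.30) had adjusted p = 0.378, and it was -0.37 ± 0.156 (adjusted p = 0.846) without the 5 arrays. With array weights Foxf1 passed there (-0.42, adjusted p = 0.00698), as did 28.1% of all genes. The median of all genes moved by -0.23 in that step with all arrays and by -0.04 without the 5. Of 14 endothelial genes 2 rose from day 1 to day 42, the receptors Tek (1.12 ± 0.214) and Flt1 (0.98 ± 0.22), and 0 fell (7 and 1 without the 5 arrays). The share of all genes past the test between these ages was 26.8%, and 46.6% without the 5 arrays. Foxf1 itself differed by -0.23 ± 0.318 between those ages, and by -0.05 ± 0.174 without the 5 arrays.

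Other genes of the same programmes were read from lists of known members, again beside 26.8% of all genes past the test (46.6% without the 5 arrays). Of 38 other lung transcription factors tested, 1 rose and 14 fell from day 1 to day 42 (6 and 18 without the 5 arrays), with a median of -0.38. The largest falls were those of Etv4, a factor downstream of FGF signals (-5.0 ± 0.544), Foxm1, a forkhead factor of dividing cells (-3.66 ± 0.381), and Mycn, a growth-promoting factor of distal tips (-2.34 ± 0.285). Relatives of the members, picked after their values were seen, included Gata2, the gene that rose (0.83 ± 0.303), Tbx2 (-0.98 ± 0.261) and Foxf2 (-0.99 ± 0.334), which fell, and Tbx3 (-0.37 ± 0.199), Gata4 (-1.21 ± 0.607) and Sox11 (-0.65 ± 0.458), which did not pass. Of 21 genes for inductive signals of branching, 1 rose and 11 fell (2 and 13 without the 5 arrays), with a median of -1.27. Rspo2, an enhancer of Wnt signals (-3.72 ± 0.389), and the Hedgehog effectors Gli1 (-2.27 ± 0.254) and Gli3 (-2.24 ± 0.259) had the largest falls. The alveolar lists had 0 falls. Of 12 type 2 genes 3 rose (9 without the 5 arrays), namely Cd36, a fatty acid transporter (2.03 ± 0.466), Lyz2, a lysozyme (1.39 ± 0.291), and Hc, complement component C5 (0.81 ± 0.14). Lyz2 and Cd36 are made by other lung cells too. Of 11 type 1 genes 3 rose (7 without the 5 arrays), Clic5 (1.84 ± 0.382), Hopx (1.23 ± 0.212) and Vegfa (0.83 ± 0.184). Of 13 fibroblast and muscle genes 1 rose and 6 fell (1 and 6 without the 5 arrays), with Tgfbi, a matrix adhesion protein (-3.12 ± 0.479), and the smooth muscle actins Actg2 (-2.66 ± 0.433) and Acta2 (-2.10 ± 0.431) falling most.

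**Figure D4:**
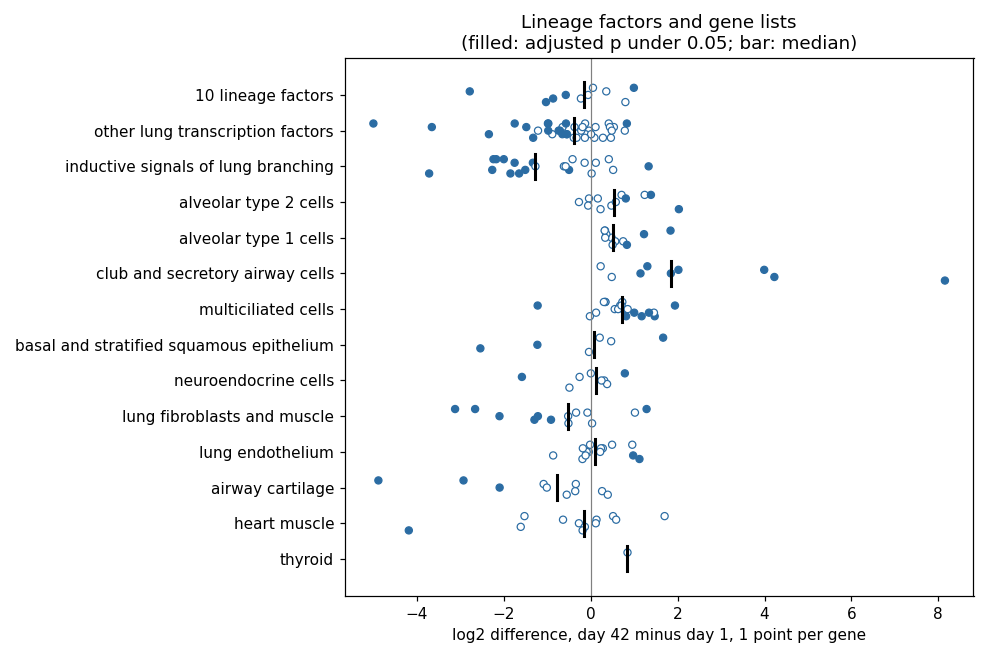
Log2 difference between day 42 and day 1 (horizontal axis) of each gene tested, in rows for the 10 lineage factors and the 13 gene lists, filled where adjusted p was under 0.05, with the median as a bar. The medians of other lung transcription factors (-0.38) and of inductive signals (-1.27) lie left of 0, and that of club and secretory genes (1.84) lies right of it.

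For each of the 6 factors past the F-test, the genes with the most similar profile were taken as those with the smallest root mean square distance over the 24 arrays, each gene centred on its own mean. This distance is a description, since arrays share their quality and age. Nearest to Foxj1 were Ubxn10, 1110017D15Rik and Rsph1, a radial spoke head gene, at 0.161, 0.168 and 0.177 log2 units. Nearest to Sox2 were Dydc2 (0.202) and the axonemal dynein genes Dnah2 (0.203) and Dnah10 (0.212). Sox9 was most like Fbln2, a fibulin of the matrix (0.266), Adgrb2 (0.321) and Frem2, a basement membrane protein (0.322). Tbx4 was most like Zfp503 (0.125), Prdm6 (0.136) and Ust (0.140), and Tbx5 was most like the laminin chain Lama4 (0.156), Adgrl1 (0.174) and Gatad2b (0.209). Gata6 was most like Zc3h14 (0.153), Dimt1 (0.166) and Plekha5 (0.168), of which the first did not pass the F-test.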

How the data were processed

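Per the file headers, Feature Extraction (version 10.7.3.1, or 10.7.1.1 by the submitters' processing notes) wrote a background-corrected and detrended intensity for every spot. The deposited scans also give median intensities of spot and surround, and quality flags of 0 or 1. The authors deposited a table of log2 values for 52095 probes by a method not given in the sources used here. Of 59305 spots for 55681 probes, non-uniform ones were left out and replicate spots averaged, 138 probes were dropped, and 25998 probes took 1 of 19722 symbols from a RefSeq table (GRCm38.p6, names only). Array 75th percentiles lay between 475.9 and 1652.1, and the number of arrays limits precision. The brightest probe stood for a gene, tested when well above background on at least 4 arrays. Ages were fitted together in limma 3.58.1 (R 4.3.3), Benjamini-Hochberg threshold 0.05, and the code was tested on simulated data. In that test 33% of simulated 2-fold and 77% of simulated 4-fold changes between day 42 and day 1 passed. Far fewer genes were changed there than differed in these data, and the noise of each gene was drawn independently. Those shares are therefore not the sensitivity of the tests above, and small changes can still be missed. Mean spot signals are not used here, so the normexp alternative (offset 50) took medians. Besides the F-test, ages were compared over the 4 neighbouring steps and from day 1 to day 42, and no other pair was tested. Lists, members and tests were chosen with earlier results of these data known. The rule for named genes took all members, up to 3 called genes per list with the largest day 1 to day 42 difference, and the 3 nearest genes per member. Alternatives are in the closing section.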

Additional observations from a re-analysis of the deposited data

Results flagged for a closer look

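Within each age the array farthest from the others was compared with the range of its group for the 10 factors, 50 groups in all, of which 3 stood out; chance alone gives about 1 in 20. Day 7 replicate 4 was high for Nkx2-1, at 2.20 with the next array at 1.59, and for Tbx5, at 2.55 with the next at 2.09. Day 14 replicate 3 was high for Tbx5, at 2.38 with the next at 2.14. Day 7 replicate 4 had the highest 75th percentile of all arrays (1652.1), and day 14 replicate 3 the highest share of probes well above background (79.4%).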

How the results depend on the processing

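Over all alternatives run, 0 calls of a member reversed. Of the differences recomputed, 1892 kept their side of the threshold, 50 passed only under the alternative and 8 lost their call. From day 7 to day 14 the count of members past the test went from 1 to 3 with quantile normalization, with the 75th percentile of probes detected on all arrays, in the authors' table, with the compared ages alone, and without the 5 arrays or all 6 (the 5 and day 14 replicate 5), and to 6 with array weights. The share of all genes past the test there went from 11.6% to between 18% (quantile normalization) and 60.3% (array weights). From day 14 to day 42 it went from 1 to 3 with quantile normalization, in the authors' table and without the 5 arrays, to 2 without all 6, to 4 with the 75th percentile of detected probes, to 6 with array weights, and to 0 both with the compared ages alone and with scaling to the median. All genes went from 3.70% to 6.12%, 9.59%, 13.5%, 14.2%, 6.86%, 31.3%, 1.30% and 3.02%, in that order. From day 4 to day 7 array weights gave 2 (28.1% of all genes), and from day 1 to day 42 the compared ages alone gave 3 in place of 5 (13.7% of all genes). Leaving out 1 array gave 5 to 6 members for any age, 0 to 0 for days 1 to 4 and 4 to 7, 1 to 1 for days 7 to 14, 0 to 1 for days 14 to 42 (0 without day 42 replicate 2) and 5 to 6 for days 1 to 42. The median of all genes from day 4 to day 7 was -0.23, and -0.37 with median scaling, -0.01 in the authors' table and -0.13 with quantile normalization, while from day 7 to day 14 median scaling moved it from 0.02 to -0.15. Of 46 same-numbered pairs of replicates, 16 correlated above 0.1 in their deviations (median -0.01, range -0.849 to 0.879). Pairs with different numbers were not computed, so whether replicate numbers pair the samples cannot be told. With the replicate block 5 members passed for any age (Gata6 had adjusted p = 0.0548), and 0, 0, 1, 1 and 5 in the 5 comparisons. With a slide block 6 passed for any age and 6 from day 1 to day 42, Foxj1 added (adjusted p = 0.0419). The cause of these moves was not tested.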
